A study of Mus musculus with 6 samples.

Results

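The adhesion G protein-coupled receptor (GPCR) genes described here were Adgrb2, Adgrb3, Adgrl1, Adgrl2, Adgrl3, Adgrg1 and Adgra3, which are 7 of the 13024 genes in the deposited count table of embryonic mouse lens. They were taken by gene symbol, and all 7 were present. Adgrb2 was chosen by its counts in the same libraries that are compared below, because they differed between the groups, so its difference is given as a description with no test. The other 6 genes were added as family relatives with earlier results of these data known. A list of 30 mouse adhesion GPCR genes had 17 in the table, these 7 and 10 more, and the 13 others were not analysed here.

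The RNA came from lenses of mouse embryos at E14.5 on a mixed C57BL/6 and FVB background, with 3 control pools and 3 pools labelled CKO, and each pool held 10 lenses from 5 embryos. The CKO embryos were homozygous for a floxed Gata3 allele and carried the Pax6-Cre transgene (Gata3 f/f, Pax6-Cre/+), in which a Pax6 enhancer and the P0 promoter drive Cre in the surface ectoderm that forms lens and cornea. The sources give the control genotype in different ways, as wild type, as Gata3 f/f and as Gata3 f/wt without Cre, so these pools are called control. No library carried Cre without the floxed alleles, so an effect of the transgene and one of Gata3 cannot be told apart. PolyA-selected, strand-specific libraries held 15157230 to 18811104 counts. For Gata3 itself, 202, 386 and 156 counts were listed in control, against 910, 1064 and 894 in the libraries labelled CKO. The targeted gene therefore stood against its label at the level of the whole gene, and gene counts do not show whether reads came from the floxed exon. The study reports from its reads and from PCR on DNA that this exon was excised in the mutant lenses. With qPCR primers that reach this exon, it reports a strong drop of Gata3 RNA in mutant lenses at E14.5. The reads and the PCR are not analysed here. The fibre cell genes Dnase2b, a nuclease for the removal of nuclei, and Bfsp2, a beaded filament protein, separated the groups. Dnase2b was at 12.9, 22.6 and 7.54 CPM in control against 0.973, 0.305 and 0.468 in CKO, and Bfsp2 at 531, 963 and 364 against 235, 205 and 193. The study lists both as reduced in the mutant from these same libraries, so they are no independent check of the labels. Every CKO pool lay below every control pool in 4.69% of the 12879 genes tested. CPM are counts per 1000000 counts of a library, after the library totals were scaled by the factors of the main test described below. The groups are named by their labels throughout, and CKO below means a library labelled CKO.

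Adhesion GPCRs carry a long extracellular region that binds proteins on other cells or in the matrix, and a domain next to the membrane at which many of them cut themselves, which exposes a tethered peptide that can activate the receptor. The Adgrb receptors were first known as brain-specific angiogenesis inhibitors and act at synapses and in the uptake of apoptotic cells. The Adgrl receptors, or latrophilins, bind teneurins and Flrt proteins and help neurons find their partners. Adgrg1 binds collagen III and transglutaminase 2 and is known for its role at the surface of the developing brain, and Adgra3 is an orphan receptor that has been tied to planar cell polarity and Wnt signalling.

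In GRCm38, the assembly of mm10, Adgrb2 lies on the plus strand of chromosome 4 from 129984870 to 130022633 and Adgrb3 on the minus strand of chromosome 1 from 25067476 to 25829707. Adgrl1 spans 83900105 to 83941954 and Adgrg1 94974751 to 95014217 on chromosome 8, both on the plus strand. Adgrl3 spans 81020138 to 81825133 on the plus strand and Adgra3 49959956 to 50059006 on the minus strand of chromosome 5. Adgrl2 lies on the minus strand of chromosome 3 from 148815583 to 148990555. Annotated genes on the opposite strand shared exon bases with Adgrl1 (1107 bases with Gm10644), Adgrl3 (1582 bases with Gm16054) and Adgrl2 (202 bases with Gm43573). None of these 3 was a row of the count table, and the strand setting of the counting is not stated, so whether their reads were counted in the sense gene is unknown. Adgrb2, Adgrg1 and Adgra3 overlapped no other annotated gene, and the genes that overlap Adgrb3 shared none of its exon bases.

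Because the pools are labelled by a GATA factor, the promoter windows of the genes are shown with the letters that GATA factors are known to bind. RefSeq (GRCm38.p6) gave 10 windows for the 7 genes, each with 250 bases before and 50 bases from a transcription start. The letters AGATAA were searched on both strands, and so were the variants AGATAG, then TGATAA, and last TGATAG. A match was held by 3 of the 10 windows, while 29.8% of all 32851 windows of that length and 18.1% of the 12935 windows of genes in the table held one. The Adgrb2 window, with a GC content of 81.7% and 45 CpG dinucleotides, held none of these letters. The Adgrl2 window, which lies inside the annotated gene at an inner start, had a GC content of 38.0% and a match. Both other matches were in Adgrl3 windows. No binding was measured in these libraries. The Adgrb2 window and the 3 windows with a match read as follows, with the matched letters in capitals, a match on the other strand as its reverse complement.
Adgrb2 (chr4:129984620-129984919, plus strand): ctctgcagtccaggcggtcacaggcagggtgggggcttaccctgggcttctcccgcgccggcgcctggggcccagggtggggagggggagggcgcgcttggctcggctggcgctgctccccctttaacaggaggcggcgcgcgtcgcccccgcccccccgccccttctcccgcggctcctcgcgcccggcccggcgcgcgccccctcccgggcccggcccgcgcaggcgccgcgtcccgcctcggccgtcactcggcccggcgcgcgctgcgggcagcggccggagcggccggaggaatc
Adgrl2 (chr3:148954586-148954885, minus strand): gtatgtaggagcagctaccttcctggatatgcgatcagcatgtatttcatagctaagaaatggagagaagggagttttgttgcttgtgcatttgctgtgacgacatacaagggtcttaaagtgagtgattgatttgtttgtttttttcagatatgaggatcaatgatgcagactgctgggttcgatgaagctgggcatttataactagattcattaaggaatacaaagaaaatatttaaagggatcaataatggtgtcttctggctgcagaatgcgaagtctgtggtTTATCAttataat
Adgrl3, outer start (chr5:81020321-81020620, plus strand): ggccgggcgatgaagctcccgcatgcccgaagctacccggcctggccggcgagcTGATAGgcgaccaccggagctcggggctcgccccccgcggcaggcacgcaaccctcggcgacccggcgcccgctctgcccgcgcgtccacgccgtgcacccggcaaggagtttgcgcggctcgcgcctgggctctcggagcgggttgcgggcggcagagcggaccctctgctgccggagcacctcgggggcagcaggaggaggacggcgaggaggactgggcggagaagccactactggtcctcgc
Adgrl3, inner start (chr5:81021343-81021642, plus strand): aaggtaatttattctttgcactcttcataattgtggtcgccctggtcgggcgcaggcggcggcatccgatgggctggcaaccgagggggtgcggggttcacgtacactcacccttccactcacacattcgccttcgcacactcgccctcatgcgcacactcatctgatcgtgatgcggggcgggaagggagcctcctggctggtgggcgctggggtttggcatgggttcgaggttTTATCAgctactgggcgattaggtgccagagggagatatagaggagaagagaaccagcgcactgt

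Adgrb2 mRNA was at 37.0, 34.0 and 34.3 CPM in the control pools and at 49.9, 49.7 and 45.0 CPM in the CKO pools. All 3 CKO values lay above all 3 control values, and the lowest CKO value was 21.5% above the highest control value. The means were 35.1 ± 1.64 CPM in control and 48.2 ± 2.80 CPM in CKO (SD, n = 3 pools each). The fitted log2 fold change of CKO over control was 0.46 (SE 0.08, 95% interval 0.26 to 0.66), a ratio of 1.37. In pools of whole lenses, a larger share of cells with a transcript and more transcript per cell cannot be told apart. These values rested on 584, 483 and 614 counts in control and 770, 977 and 864 in CKO. Counting error alone gives a coefficient of variation of 4.25% in control and 3.41% in CKO at such counts, and the observed values were 4.68% and 5.81%.

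**Figure D1:**
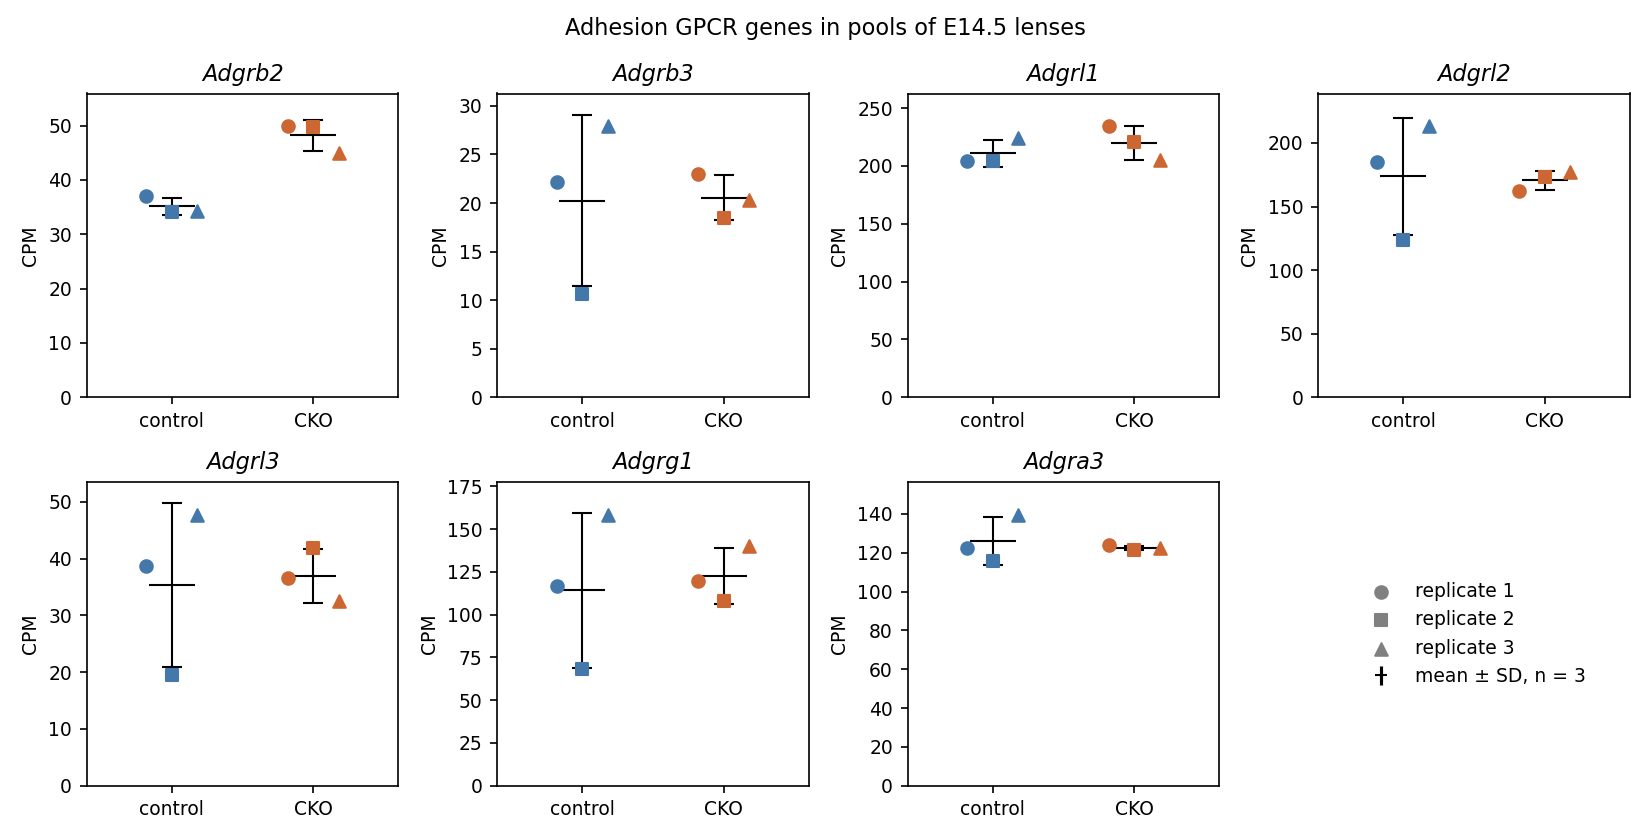
CPM of the 7 adhesion GPCR genes (vertical axes, from 0) in 3 control pools (blue) and 3 CKO pools (orange), with symbols for replicates and bars for the mean ± SD (n = 3). For Adgrb2 the CKO pools sit between 45.0 and 49.9 CPM and the control pools between 34.0 and 37.0 CPM, while the groups overlap for the other 6 genes.

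Adgrb3, the relative of Adgrb2 that binds C1q-like proteins at synapses, gave 22.1, 10.6 and 27.9 CPM in control and 23.0, 18.4 and 20.3 CPM in CKO. Control 2 was the lowest and control 3 the highest of the 6 libraries, so that the CKO values lay within the control range. The log2 fold change was 0.02 (SE 0.33, 95% interval -0.77 to 0.81). The third gene of the subfamily, Adgrb1, a receptor for phosphatidylserine on dying cells, was at 20.2, 12.9 and 28.3 CPM in control and at 24.4, 19.4 and 23.9 CPM in CKO. Control 2 was again lowest and control 3 highest, and the log2 fold change was 0.14 (SE 0.28).

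Adgrl1, the latrophilin known as a receptor of black widow spider toxin, had 204.0, 203.9 and 224.3 CPM in control and 234.4, 220.7 and 205.2 CPM in CKO. The highest library was 1.15 times the lowest, the least of the 7 genes, and the ranges of the groups overlapped between 205.2 and 224.3 CPM. Its log2 fold change was 0.06 (SE 0.08, 95% interval -0.13 to 0.26).

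Adgrl2 gave 184.7, 123.3 and 213.3 CPM in control and 162.2, 172.9 and 177.0 CPM in CKO. All CKO pools lay inside the control range, and the log2 fold change was -0.03 (SE 0.19, 95% interval -0.48 to 0.43). Adgrl3, which joins teneurins and Flrt proteins across synapses, was at 38.7, 19.5 and 47.8 CPM in control and at 36.5, 41.9 and 32.5 CPM in CKO. Here too control 2 was lowest and control 3 highest, with a log2 fold change of 0.06 (SE 0.31, 95% interval -0.68 to 0.80).

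Adgrg1, the receptor of collagen III, had 116.6, 68.0 and 158.6 CPM in control against 119.4, 108.1 and 140.2 CPM in CKO. The extremes were again control 2 and control 3, which differed 2.33-fold. The log2 fold change was 0.10 (SE 0.29, 95% interval -0.60 to 0.79). Adgra3 was at 122.4, 115.9 and 139.7 CPM in control and at 123.8, 121.5 and 122.2 CPM in CKO. The CKO pools lay inside the control range and had a coefficient of variation of 0.994%, where counting error alone gives 2.14%, and its log2 fold change was -0.04 (SE 0.08, 95% interval -0.24 to 0.16).

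Over all 12879 genes tested, edgeR called 0 at an adjusted p under 0.05 (0%), and so 0 of the 7 genes. At an unadjusted p under 0.05 it called 457 genes (3.55%), with Adgrb2 among them and none of the other 6. DESeq2 called 85 of the 12866 genes to which it gave an adjusted p (0.661%), with Adgrb2 as the 1 of the 7, and limma voom called 0 (0%). Adgrb2 was taken up for this difference, so nothing is read from these counts for that gene. For the other 6 genes the edgeR adjusted p was 0.9998 each. Their 95% intervals reached no further than 0.26 on the log2 scale in either direction for Adgrl1 and Adgra3, and up to 0.81, 0.80 and 0.79 for Adgrb3, Adgrl3 and Adgrg1. Every CKO pool lay above every control pool in 473 of the 12879 genes (3.67%), and in Adgrb2 alone of the 7, which its choice had fixed. The log2 fold change was above 0 in 5 of the 7 genes, among them Adgrb2, which was chosen for its difference. It was above 0 in 6515 of all 12879 genes tested. The median was 0.06 over the 7 genes and 0.0019 over all genes tested, and no tendency of the family is read from this. No direction is given for Adgrb3, Adgrl2, Adgrl3, Adgrg1 and Adgra3, because the sign turned when 1 library was left out. None is given for Adgrl1 either, because its 95% interval held 0 (-0.13 to 0.26). Without control 2, the log2 fold change was -0.27 for Adgrb3, -0.21 for Adgrl3 and -0.16 for Adgrg1, and without control 3 it was 0.15 for Adgrl2 and 0.04 for Adgra3.

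**Figure D2:**
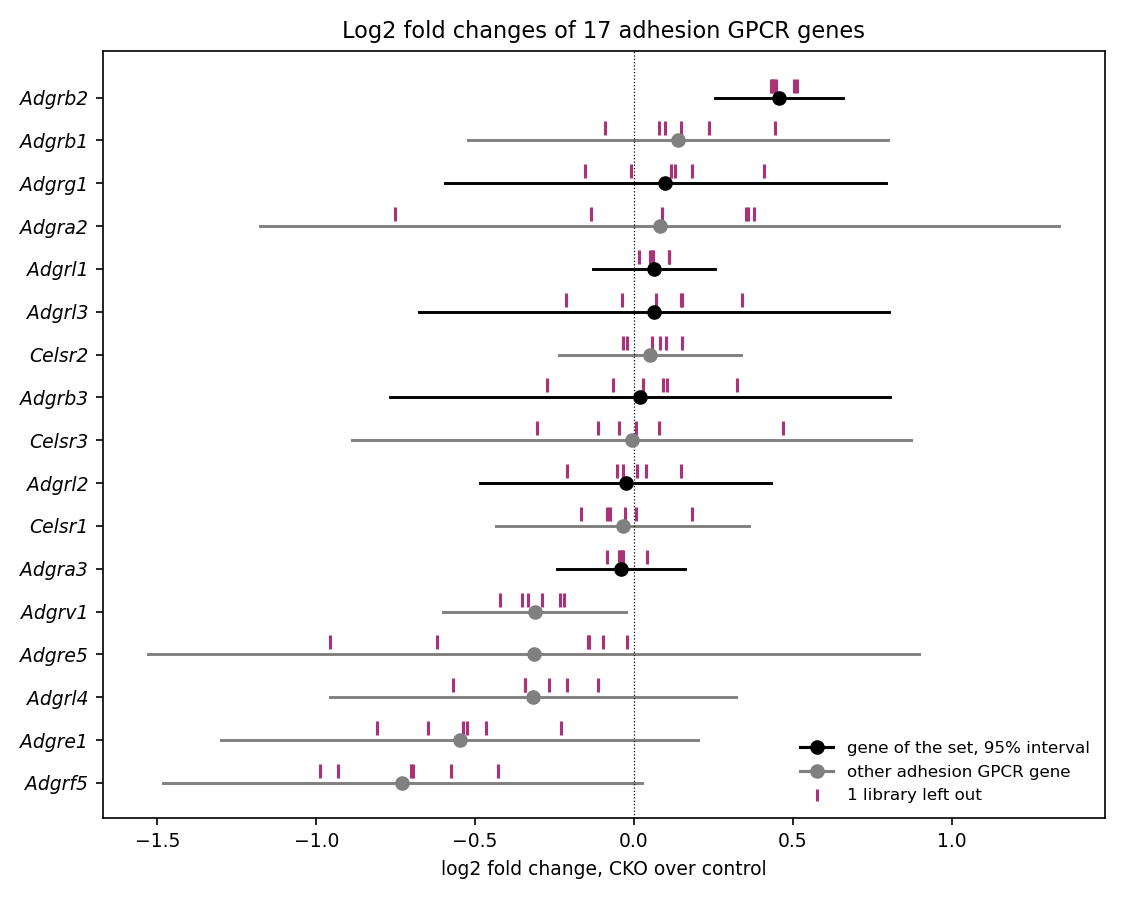
Log2 fold change of CKO over control (horizontal axis) for the 7 genes (black) and the 10 other adhesion GPCR genes in the table (grey), with 95% intervals from edgeR as lines and the values with 1 library left out as small bars above them. Adgrb2 stays between 0.43 and 0.51 whichever library is left out, while Adgrg1 moves between -0.16 and 0.41.

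Ratios of these genes inside a library do not depend on how the libraries are scaled. Adgrb2 was at 0.181, 0.167 and 0.153 of the Adgrl1 counts in the control libraries and at 0.213, 0.225 and 0.219 of them in the CKO libraries, and the groups did not overlap. Its ratio to Adgra3 was 0.302, 0.294 and 0.246 in control and 0.403, 0.409 and 0.368 in CKO, also without overlap. The ratio to Adgrg1 was 0.317, 0.501 and 0.216 in control and 0.418, 0.460 and 0.321 in CKO, and the groups overlapped, with the highest ratio in control 2, where Adgrg1 was lowest. Ratios to Adgrb3, Adgrl2 and Adgrl3 overlapped as well. Of all counts on the 17 adhesion GPCR genes, Adgrb2 made up 2.22% to 2.81% in control and 3.46% to 3.72% in CKO. Adgrb2 was chosen because its counts differed between these libraries. Its ratios to genes that changed little and also varied little between pools, as Adgrl1 and Adgra3, had to differ too. Nothing is therefore read from the separation of these ratios and shares. The 7 genes together were at 726, 575 and 846 CPM in control and at 749, 733 and 742 CPM in CKO, so the sum spread more between the control pools than between the CKO pools.

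The level of each gene was compared between genes as CPM per kilobase of merged exons, which corrects for length. In control, Adgrl1 stood at 24.5 ± 1.36 and Adgrg1 at 21.1 ± 8.36 CPM per kilobase (SD, n = 3), followed by Adgra3 at 15.5 ± 1.52 and Adgrl2 at 12.2 ± 3.24. Adgrb2 came next at 5.41 ± 0.253, and Adgrl3 and Adgrb3 were lowest at 1.99 ± 0.812 and 1.09 ± 0.474. The control ranges of neighbours in this order overlapped, apart from the steps from Adgrl2 to Adgrb2 and from Adgrb2 to Adgrl3. In CKO the order of the 7 was the same, with Adgrb2 at 7.43 ± 0.432 CPM per kilobase, and only the ranges of Adgrl1 and Adgrg1 overlapped. Among the 12787 genes with an exon length, the control level per kilobase of Adgrl1 was at percentile 85.0, that of Adgrb2 at 39.6 and that of Adgrb3 at 8.25. The order at the top rested on the length used. With the longest annotated transcript in place of merged exons, Adgrg1 was at 31.6, Adgrl2 at 28.7, Adgra3 at 28.1 and Adgrl1 at 25.8 CPM per kilobase in control, while Adgrb2 at 6.79, Adgrl3 at 5.20 and Adgrb3 at 3.66 stayed lowest and in the same order.

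**Figure D3:**
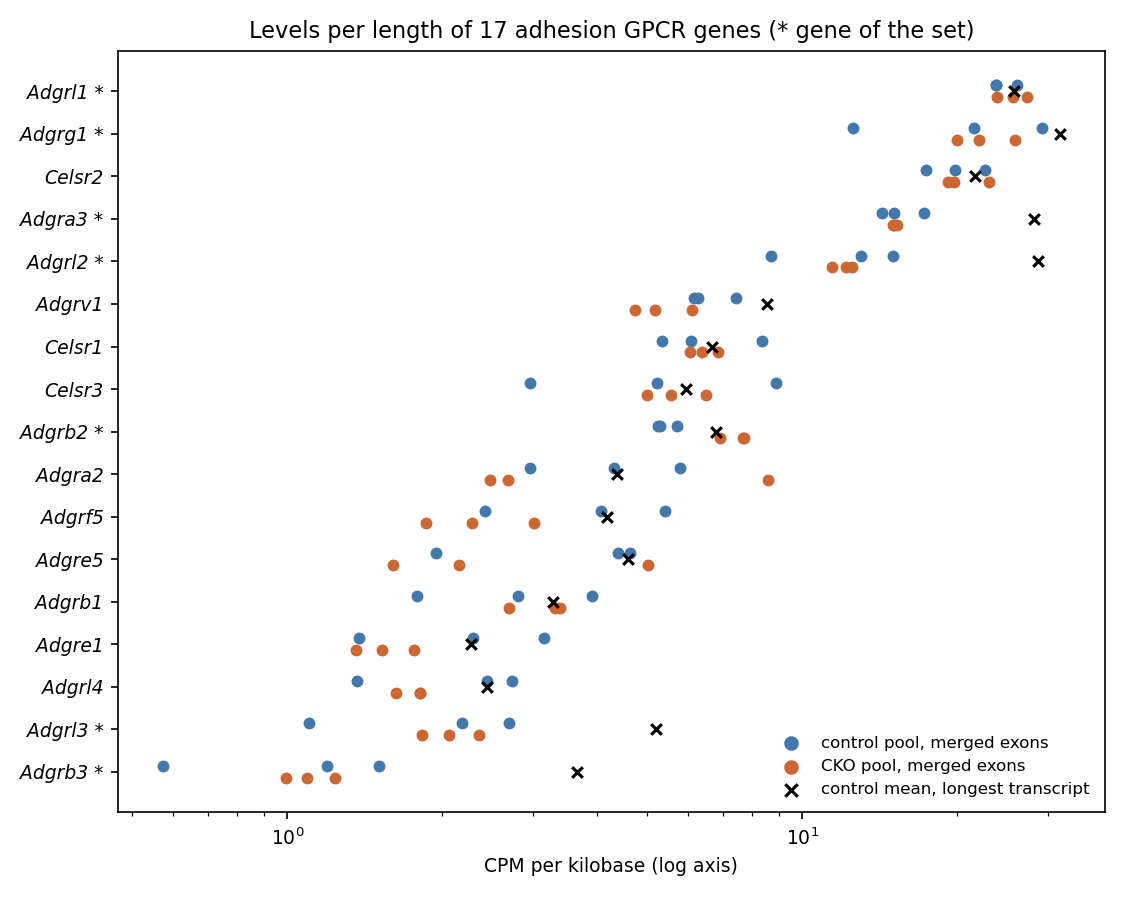
CPM per kilobase of merged exons (horizontal log axis) for 17 adhesion GPCR genes, with a point for each control pool (blue) and CKO pool (orange) and a cross for the control mean over the longest transcript. Adgrl1 and Adgrg1 lie highest by merged exons, and Adgrb2 lies between the group of Adgrl2 and Adgra3 above it and Adgrl3 and Adgrb3 below it.

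The 10 other adhesion GPCR genes in the table were all tested, and log2 fold changes ran from -0.73 for Adgrf5, a receptor of lung and vessel cells, to 0.14 for Adgrb1. edgeR called 0 of them at an adjusted p under 0.05, DESeq2 and limma voom called 0, and 1 had an unadjusted p under 0.05. That gene was Adgrv1, a very large receptor of hair cell and photoreceptor links, at 156, 153 and 185 CPM in control and 152, 118 and 129 CPM in CKO. All its CKO pools lay below all its control pools, an order found in 604 of the 12879 genes (4.69%), and the log2 fold change was -0.31 (SE 0.12). The planar polarity receptors Celsr1, Celsr2 and Celsr3 had log2 fold changes of -0.04, 0.05 and -0.01. Celsr2 was at 229 ± 29.9 CPM in control and 238 ± 23.7 CPM in CKO, the highest CPM of the 17 genes. Adgre1, the F4/80 antigen of macrophages, Adgre5 of leukocytes and Adgrl4 of endothelium had values of -0.55 (SE 0.32), -0.32 (SE 0.51) and -0.32 (SE 0.27). Adgra2, a receptor of brain vessels, was highest in CKO 2 with 49.6 CPM and in control 1 with 33.4 CPM, against 14.3 to 24.9 CPM in the other 4 libraries.

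The libraries differed in the markers of tissues around and within the lens. Of 12 retina markers all had counts in every library, and their summed level was 2073, 1233 and 2824 CPM in control and 2141, 1954 and 2544 CPM in CKO. The 10 neuron markers gave 1586, 751 and 2482 CPM in control and 1884, 1551 and 2138 CPM in CKO. Both sums were lowest in control 2 and highest in control 3, as were Adgrb3, Adgrl2, Adgrl3, Adgrg1 and Adgra3 and, of the other adhesion GPCR genes, Adgrb1 and Celsr3. The share of all genes with this order was not counted, so the order is not read as a link to retina or neurons. To set patterns side by side, log2 CPM of each gene was centred on its mean over the 6 libraries, and the root mean square difference to the centred sum of the markers was taken. It was 0.012 on the log2 scale between Adgrg1 and the retina sum, 0.15 for Adgrb3, 0.18 for Adgrl2, 0.23 for Adgrl3, 0.32 for Adgra3, 0.36 for Adgrl1 and 0.40 for Adgrb2. Of the 10 marker lists, the retina sum was the nearest to Adgrg1, Adgrb3, Adgrl2 and Adgrl3. The lens epithelium sum was the nearest to Adgrl1 (0.19), Adgra3 (0.20) and Adgrb2 (0.34). The vessel sum came next for these 3 genes (0.26, 0.25 and 0.39). The epithelium sum itself varied little, at 972, 1169 and 892 CPM in control and 913, 888 and 911 CPM in CKO. Genes that vary little lie near such a sum without sharing its pattern. The sum was not higher in CKO, where Adgrb2 was, so Adgrb2 is not said to follow it. All values share the same 6 libraries and their scaling, and the part of retina, neuron or other RNA in the levels of these genes was not tested.

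The 12 lens fibre markers summed to 47886 to 140327 CPM in control, with the highest sum in control 2, and to 42722 to 57908 CPM in CKO. The 5 lens epithelium markers summed to 892 to 1169 CPM in control and 888 to 913 CPM in CKO. Pax6 made up most of the epithelium sum, at 647, 598 and 662 CPM in control and 619, 586 and 647 CPM in CKO. Foxe3, Cdh1, Npnt and Slc38a3 were each highest in control 2, so the sum did not show their pattern. All 12 fibre markers had a log2 fold change below 0, with a median of -1.49, from -0.55 for Cryaa to -4.64 for Dnase2b. In 7 of the 12 every CKO pool lay below every control pool, among them the beaded filament gene Bfsp1 with 715, 1945 and 637 CPM in control and 199, 166 and 137 CPM in CKO. edgeR called 0 of the 12 at an adjusted p under 0.05 and 8 at an unadjusted p under 0.05, DESeq2 called 4 and limma voom 0. The log2 fold changes of these fibre genes were thus below 0 where that of Adgrb2 was above 0, but this did not hold pool by pool. The fibre sum was 57908 CPM in CKO 1, above the 47886 CPM of control 3. The part of the fibre genes in the Adgrb2 difference was not tested. The 9 mesenchyme markers in the table summed to 274 to 2026 CPM in control and 371 to 3356 CPM in CKO, highest in control 1 and CKO 2, the libraries in which Adgra2 was also highest. Pigment cell markers ranged from 69.8 to 341 CPM in control and from 72.6 to 341 CPM in CKO, and surface ectoderm markers from 35.5 to 93.5 and from 51.2 to 150.2 CPM. Vessel markers ranged from 278 to 358 CPM in control and from 252 to 310 CPM in CKO. Kdr made up the largest part of the vessel sum and was lowest in control 2, where Pecam1, Cdh5, Tie1 and Esam were highest. Macrophage markers ranged from 78.3 to 151 CPM in control and from 69.2 to 96.4 CPM in CKO. Blood markers ranged from 383 to 1384 and from 306 to 452 CPM, with Hba-a2 and Hbb-bt at 0 counts in every library. The blood sum thus rested on 4 genes. The rows had been limited to genes with a mean FPKM above 1, so these 0 counts are not read as absence of the RNA.

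**Figure D4:**
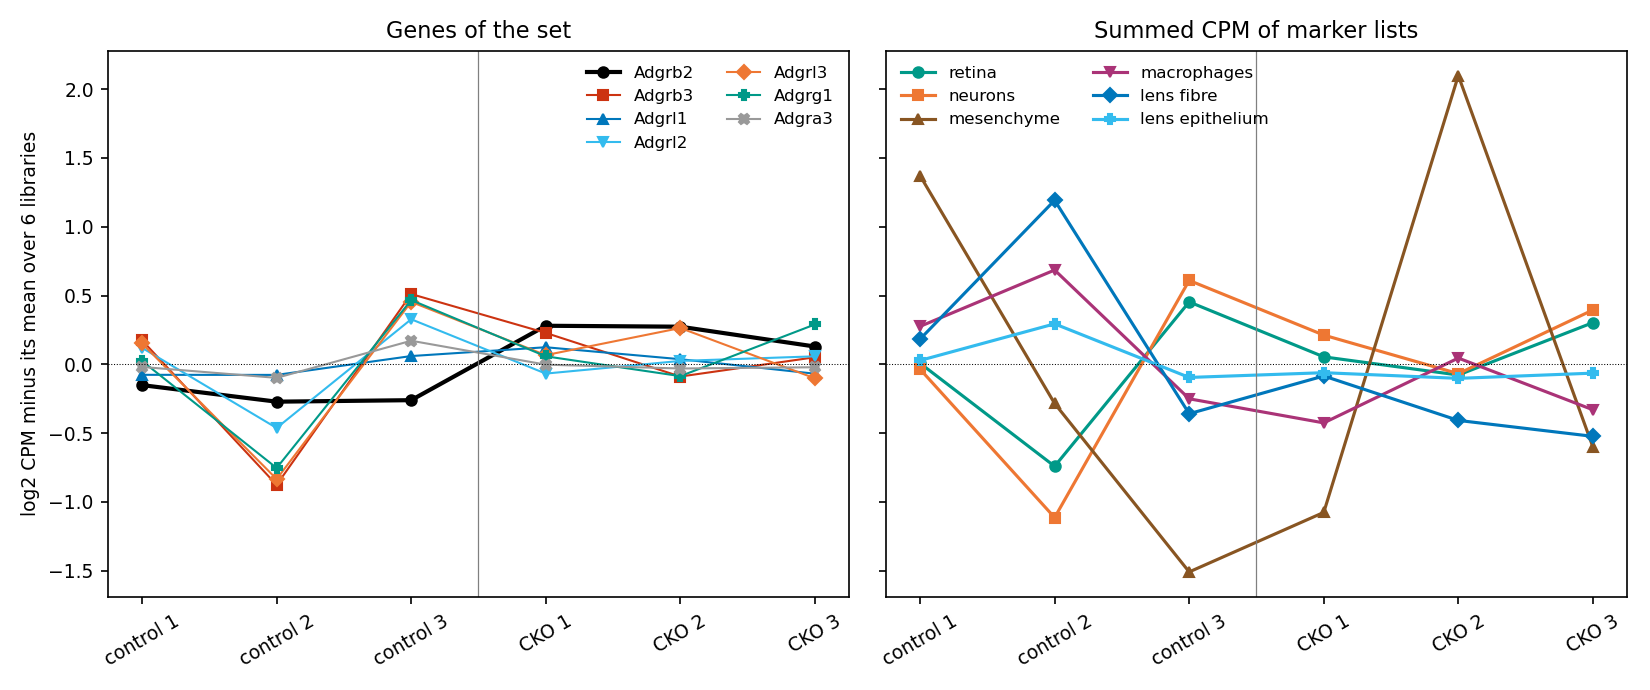
Log2 CPM minus its mean over 6 libraries (vertical axis) for the 7 genes (left) and for the summed CPM of 6 marker lists (right) in each library, with lines that join the values of 1 gene or list and a grey line between the groups. Adgrb3, Adgrl2, Adgrl3, Adgrg1 and Adgra3 have their lowest point in control 2 and their highest in control 3, as the retina and neuron sums do, and Adgrb2 has its 3 lowest points in control.

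The genes whose patterns over the 6 libraries were nearest to those of the receptors were sought among 11601 genes with a mean of at least 5 CPM, by the same root mean square difference. Nearest to Adgrb2 were Ddah1, an enzyme that breaks down dimethylarginine (0.043), Bace1, the beta-secretase (0.062), Dixdc1, a protein of Wnt signalling (0.074), Dync2li1, a part of the dynein of cilia (0.074), and Tspan18, a tetraspanin (0.076). Ddah1 was at 34.6, 33.1 and 32.9 CPM in control and at 49.1, 47.2 and 46.2 CPM in CKO. Bace1 was at 49.2, 47.4 and 43.5 CPM in control and at 70.9, 71.3 and 59.6 CPM in CKO. None of the 5 had overlapping groups, which follows from the pattern they were matched to. Ranked by Pearson correlation in place of the difference, 2 of these 5 genes, Ddah1 and Bace1, were still in the first 5.

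**Figure D5:**
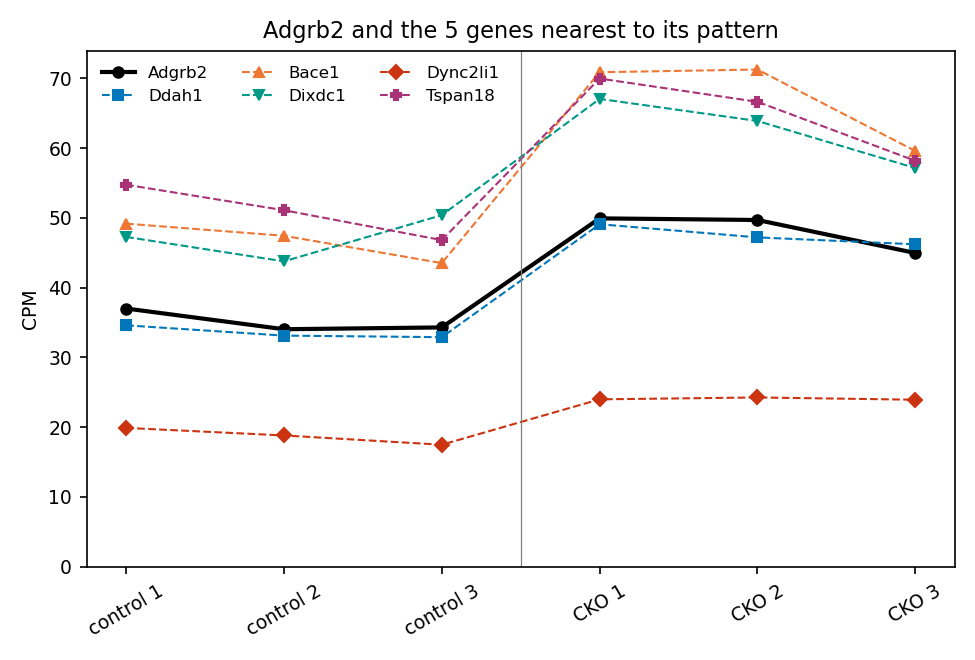
CPM of Adgrb2 (black) and of the 5 genes nearest to its pattern (vertical axis, from 0) in each library, with lines that join the values of 1 gene and a grey line between the groups. The 5 genes were chosen for this likeness, and Ddah1 runs closest to Adgrb2, at 32.9 to 34.6 CPM in control and 46.2 to 49.1 CPM in CKO.

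Nearest to Adgrg1 were Gdap1 (0.021), the neuronal tubulin gene Tubb2b (0.022) and Olfm1 (0.022), and nearest to Adgrb3 were Dock3 (0.048), the nuclear receptor gene Rora (0.060) and the diacylglycerol kinase gene Dgkh (0.062). Adgrl3 had Egflam (0.085), Ntm (0.096) and Fam65b (0.101) as its nearest, the largest differences of the 7 receptors. Adgrl2 was nearest to Crybg3 (0.023), Dach2 (0.024) and Hddc3 (0.030), Adgrl1 to Fam208a (0.016), the receptor phosphatase gene Ptprg (0.017) and Lmtk2 (0.019), and Adgra3 to Actr5 (0.018), Dcp2 (0.020) and Prrc2b (0.021). Among the 7 themselves, Adgrl1 and Adgra3 were the closest pair (0.081), and Adgrb2 and Adgrb3, of 1 subfamily, the most distant (0.449).

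The known partners of these receptors were taken from lists of 46 genes, of which 42 were in the table and tested. edgeR called 0 of the 42, DESeq2 called 1, the scaffold gene Magi3, limma voom called 0, and 3 had an unadjusted p under 0.05 in edgeR. The log2 fold change was above 0 in 26 and below 0 in 16, beside 6515 above 0 of all 12879 genes tested. The median was 0.06 against 0.0019 over all genes. CKO pools lay above all control pools in 5 of the 42 and below them in 2, beside 3.67% and 4.69% of all genes. Of the 7, Tenm2, Nrxn3, C1ql3 and Magi3 are given below, and Tenm4, Gna11 and Gnai1 are named here after their values were seen.

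Among 9 latrophilin ligands, 4 had a log2 fold change above 0 and 5 below. The teneurin Tenm3 had the highest mean, at 454 ± 75.2 CPM in control and 441 ± 18.9 CPM in CKO. Tenm2 had the lowest log2 fold change, -0.41 (SE 0.12), from 57.5, 62.3 and 55.1 CPM in control and 43.5, 50.4 and 38.0 CPM in CKO. All CKO pools of Tenm2 lay below all control pools, and its edgeR adjusted p was 0.979. The neurexin Nrxn3 had the highest, 0.36 (SE 0.16), from 15.5, 17.5 and 18.2 CPM in control and 26.7, 18.6 and 20.6 CPM in CKO.

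Of the ligands of the Adgrb receptors, 3 were in the table. C1ql1 had the highest mean CPM of the 3, with 7.87 ± 1.14 CPM in control and 8.36 ± 1.91 CPM in CKO, which is 5.34 CPM per kilobase in control beside the 5.41 of Adgrb2. C1ql3 was at 3.99, 1.20 and 4.41 CPM in control and 5.45, 6.56 and 6.09 CPM in CKO (log2 fold change 0.90, SE 0.44), and the Nogo receptor gene Rtn4r had a log2 fold change of -0.26 (SE 0.25). Col3a1, which encodes the collagen III that Adgrg1 binds, was at 503, 135 and 73.2 CPM in control and at 70.9, 1027 and 147 CPM in CKO, highest in the libraries with the highest mesenchyme sums. Tgm2 was at 6.03 ± 0.463 CPM in control and 6.94 ± 1.46 CPM in CKO.

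A further list held 12 genes in the table, the scaffolds and engulfment effectors of the Adgrb receptors together with Gabpa and Gabpb1, subunits of a transcription factor, and the protease gene Furin. Of these, 5 had a log2 fold change above 0 and 7 below. Rac1, the GTPase at the end of the Elmo and Dock route, had the highest mean, at 340 ± 52.8 CPM in control and 338 ± 14.1 CPM in CKO. The scaffold gene Magi1 had the highest log2 fold change, 0.11 (SE 0.14). Magi3 had the lowest, -0.36 (SE 0.07), from 86.9, 86.5 and 86.0 CPM in control and 63.1, 68.0 and 71.0 CPM in CKO, with no overlap, and like Adgrb2 it was known to differ in these libraries when it was listed.

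Among 16 genes of G proteins, arrestins and exchange factors, 13 had a log2 fold change above 0, with a median of 0.07. Gnas, which encodes the stimulatory alpha subunit, had the highest mean, at 927 ± 105 CPM in control and 933 ± 44.4 CPM in CKO. Gnao1, an alpha subunit common in neurons, had the highest log2 fold change, 0.31 (SE 0.15), from 98.9, 90.4 and 134.7 CPM in control and 139.9, 125.9 and 136.4 CPM in CKO, and these overlapped. Arhgef12, an exchange factor, had the lowest, -0.09 (SE 0.09).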

How the data were processed

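The 6 libraries came from pooled lenses at E14.5, 3 from control embryos and 3 labelled CKO. The authors trimmed reads with Trim Galore, aligned them to mm10 with TopHat2 2.0.13 and counted fragments per RefSeq gene with HTSeq 0.6.1. The deposited values are these raw counts, unscaled, and the 13024 rows are limited to genes whose mean FPKM from Cuffdiff 2.2.1 passed 1 in at least 1 group. The strand and overlap options of the counting are not given in the sources used here. Titles number the CKO samples differently from their columns, and title numbers are used.

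The main test was the quasi-likelihood test of edgeR 4.0.16 in R 4.3.3, with robust dispersions, TMM factors and a Benjamini-Hochberg threshold of 0.05. Genes entered it where 3 or more libraries had 10 or more counts. Intervals are 95% intervals of that fit, and values are CPM with those factors. P-values weigh the difference between the groups against the spread between pools. Likeness used log2 CPM with a prior count of 1 over genes with a mean CPM of 5 or more, and 5 genes were listed for Adgrb2 and 3 for each other receptor. Exon lengths and positions came from GENCODE M21, matched by symbol, and promoters from RefSeq. The script was tested on simulated data. DESeq2 1.42.0, limma 3.58.1, other scalings and filters, a replicate block and each library left out were alternatives. Plots were made in Python 3.11.15 with matplotlib 3.10.9.

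The genes and lists were chosen with earlier results of these data known. Named are the 7 receptors, the other adhesion GPCR genes in the table, the nearest genes, Gata3 and, of each partner list, the genes with the highest mean CPM and the highest and lowest log2 fold change, with Magi3.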

Additional observations from a re-analysis of the deposited data

How the results depend on the processing

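The log2 fold change of Adgrb2 stayed above 0 under all 17 alternatives (0.39 to 0.56). It was 0.46 under DESeq2 and 0.39 under DESeq2 with a prior, where Adgrb2 was called, and 0.43 to 0.51 with 1 library left out. edgeR called 0 genes, DESeq2 85 and with a prior 78, with 1 of the 7 receptors called each time, and the cause of that gap was not tested. Library totals alone gave 1 gene, and leaving out 1 library 0 to 1 genes and 0 of the 7 receptors. Library totals alone also moved the median of all genes to 0.10 on the log2 scale, and Adgrl2 and Adgra3, then at 0.056 and 0.055, lay below that shift. Adgrl2 was at 0.010 under limma voom and at 0.0082 under the replicate block. With 1 library left out, Adgrb3 ranged from -0.27 to 0.32, Adgrl1 from 0.01 to 0.11, Adgrl2 from -0.21 to 0.15, Adgrl3 from -0.21 to 0.34, Adgrg1 from -0.16 to 0.41 and Adgra3 from -0.086 to 0.040. Without control 3, Adgrl1 joined Adgrb2 as the 2 receptors with every CKO pool above every control pool, a count added after seeing the data. The log2 fold change of Adgrl1 was then 0.11 (SE 0.09). Such an order arises more easily with fewer control pools, and its share among all genes was not counted without control 3. Nothing is therefore read from this order for Adgrl1.

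The longest transcript in place of merged exons gave control levels of 6.79 CPM per kilobase for Adgrb2, 3.66 for Adgrb3, 28.7 for Adgrl2, 5.20 for Adgrl3, 31.6 for Adgrg1 and 28.1 for Adgra3. The replicate block left 0 genes called and Adgrb2 at 0.46. Deviations of same-numbered libraries correlated at -0.487, 0.0899 and 0.442, so the numbers are not taken to pair the samples. In control, the coefficient of variation was 43.5% for Adgrb3, 40.8% for Adgrl3 and 39.6% for Adgrg1, where counting error alone gives 6.19%, 4.62% and 2.54%.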
